A study of Mus musculus with 10 samples.

Results

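The circadian clock genes described here are the 10 genes Arntl (also called Bmal1), Clock, Per1, Per2, Per3, Cry1, Cry2, Nr1d1, Nr1d2 and Dbp, chosen by name out of 32903 genes to ask whether the harvest phase differed between treated and vehicle libraries. They were measured by RNA sequencing of preadipocytes, the precursors of fat cells, isolated from inguinal subcutaneous fat (male wild-type C57 BL6 mice). There were 10 libraries, 5 of cells that received DMSO alone as the vehicle and 5 of cells treated with BPS (bisphenol S, which replaces bisphenol A in many products) at 2.5 µM in DMSO, so DMSO was present in both groups. The age of the mice, the length of the exposure, the hour of harvest and any step that synchronises cells are not given in the sources used here. Nothing in the labels says that replicates came from separate animals or cultures, so p-values measure the spread between these libraries, which may be technical.

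The mammalian clock is a transcriptional feedback loop. The proteins of Arntl and Clock pair and activate genes with an E-box in their promoters, among them the Per and Cry genes, whose products return to the nucleus and repress that pair. The same pair drives Nr1d1 and Nr1d2, which encode the nuclear receptors REV-ERB alpha and beta, and these repress Arntl through ROR elements, so that in cycling cells the Arntl transcript is high when Nr1d1 and Dbp transcripts are low. Dbp encodes a transcription factor of the PAR bZIP family that acts on D-boxes and carries the rhythm to output genes. Cultured fibroblasts and preadipocytes hold such clocks cell by cell, and serum, cyclic AMP signals and glucocorticoids reset them, in part by inducing Per1.

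The promoters of 4 members are printed because they hold letters of such elements. Of the 10 genes, 9 had a promoter window in the RefSeq table of build GRCm38.p6 (Per2 was the exception), with 13 start sites in all. Each window ran from 250 bases before to 50 bases after the start and was searched on both strands for 5 elements. These were the E-box CACGTG, the E-box variant CACGTT, which reads as AACGTG on the opposite strand, the D-box TTATGTAA or TTACGTAA, the ROR element core TAGGTCA or TGGGTCA, and the cyclic AMP element TGACGTCA. The 250 bases before the start are printed 5′ to 3′ on the gene's strand for the members with an E-box or D-box, and for Nr1d1, with matches in capitals. Per1 (chr11:69098699-69098948, plus strand) held an E-box, Per3 (chr4:151044666-151044915, minus strand) held 2 D-boxes, Cry1 (chr10:85185055-85185304, minus strand) held an E-box and an E-box variant, and Nr1d1 (chr11:98775378-98775627, minus strand) held an E-box variant.
Per1: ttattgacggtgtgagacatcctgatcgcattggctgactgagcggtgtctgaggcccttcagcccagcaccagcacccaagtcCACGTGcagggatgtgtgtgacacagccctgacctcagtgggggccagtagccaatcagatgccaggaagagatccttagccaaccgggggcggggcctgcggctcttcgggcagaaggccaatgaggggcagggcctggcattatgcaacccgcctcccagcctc
Per3: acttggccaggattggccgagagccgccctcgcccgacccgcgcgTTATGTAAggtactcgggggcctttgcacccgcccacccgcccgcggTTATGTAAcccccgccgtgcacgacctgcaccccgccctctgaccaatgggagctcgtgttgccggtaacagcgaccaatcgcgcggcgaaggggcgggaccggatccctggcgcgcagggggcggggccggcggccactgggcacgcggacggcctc
Cry1: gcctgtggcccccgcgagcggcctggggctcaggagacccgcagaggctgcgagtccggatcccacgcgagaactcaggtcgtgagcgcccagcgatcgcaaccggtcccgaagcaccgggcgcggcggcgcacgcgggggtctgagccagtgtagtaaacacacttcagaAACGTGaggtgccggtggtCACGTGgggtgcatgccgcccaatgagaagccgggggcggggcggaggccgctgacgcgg
Nr1d1: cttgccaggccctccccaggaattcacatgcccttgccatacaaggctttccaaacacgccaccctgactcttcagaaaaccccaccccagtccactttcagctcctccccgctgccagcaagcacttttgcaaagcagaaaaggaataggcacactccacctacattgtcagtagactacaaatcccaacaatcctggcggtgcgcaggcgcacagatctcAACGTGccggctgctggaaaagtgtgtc
The E-box of Per1 began 166 bases and that of Cry1 60 bases before the start. The D-boxes of Per3 began 205 and 158 bases before it. Cry2 held an E-box variant beginning 166 bases before its start, and Arntl held a ROR element core, TAGGTCA, 31 bases into the transcript of the second of its start sites. The windows of Clock, Nr1d2 and Dbp held none of these letters. Among all 32851 windows in the table, 7.15% held the E-box, 4.68% the variant, 1.06% a D-box, 6.45% a ROR element core and 1.79% the cyclic AMP element. These matches are descriptions of sequence and no binding was measured. Coordinates are those of the RefSeq table, since the authors' build is not given in the sources used here.

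Each library held 37920689 to 42717227 estimated counts in total, and the 10 members had 251 to 3528 counts each, so every one of them passed the filter on low counts. All 10 preadipocyte markers passed that filter, with Pdgfra at 883.5 and Dlk1 at 434.6 CPM on average (CPM being counts over the library size after TMM scaling). The lowest of them were Dpp4 at 2.29 and Pi16 at 2.11 CPM, as low as the endothelial marker Pecam1 at 2.31 CPM. The 5 adipocyte markers summed to at most 0.203 CPM in any library, with Lep at 0. Macrophage markers summed to 10.5 to 16.5 CPM in DMSO and 11.6 to 18.8 CPM in BPS with Csf1r at 0, endothelial markers to 17.3 to 22.7 and 16.7 to 22.5 CPM, and mesothelial markers to 9.06 to 11 and 11 to 12.9 CPM with Msln and Upk3b at 0. The mesothelial sum was mostly Krt19, at 10.3 CPM on average. Mural cell markers, led by Cspg4, summed to 56.3 to 61.6 CPM in DMSO and 61.9 to 70.6 CPM in BPS, and their part in the results was not tested. By edgeR (adjusted p under 0.05), 1 of 10 preadipocyte, 1 of 5 mural and 1 of 2 tested mesothelial markers were called, against 4.88% of all genes tested. In such bulk libraries, fewer cells of a type and less RNA per cell cannot be told apart. The libraries numbered in the labels' sequencing codes run through all DMSO samples first, so order and group cannot be told apart.

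No clock gene separated the BPS libraries from the DMSO libraries. None of the 10 members had an adjusted p under 0.05 (0 higher and 0 lower) in the quasi-likelihood test of edgeR (Benjamini-Hochberg over the 14597 genes tested), which called 4.88% of all genes. The count was also 0 with the DESeq2 Wald test and with limma-voom. At an unadjusted p under 0.05 there was 1 member, Per3, against 18.8% of all genes tested. In 0 of the 10 did the 5 BPS values lie clear of the 5 DMSO values, which 6.9% of all genes did. The log2 fold changes (BPS over DMSO) ran from -0.11 to 0.10 with a median absolute value of 0.036, and over all genes tested that median was 0.056. Missing the threshold does not show equal levels, so the 95% interval of each difference (from its standard error, SE, with 8 residual degrees of freedom) is given below.

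**Figure D1:**
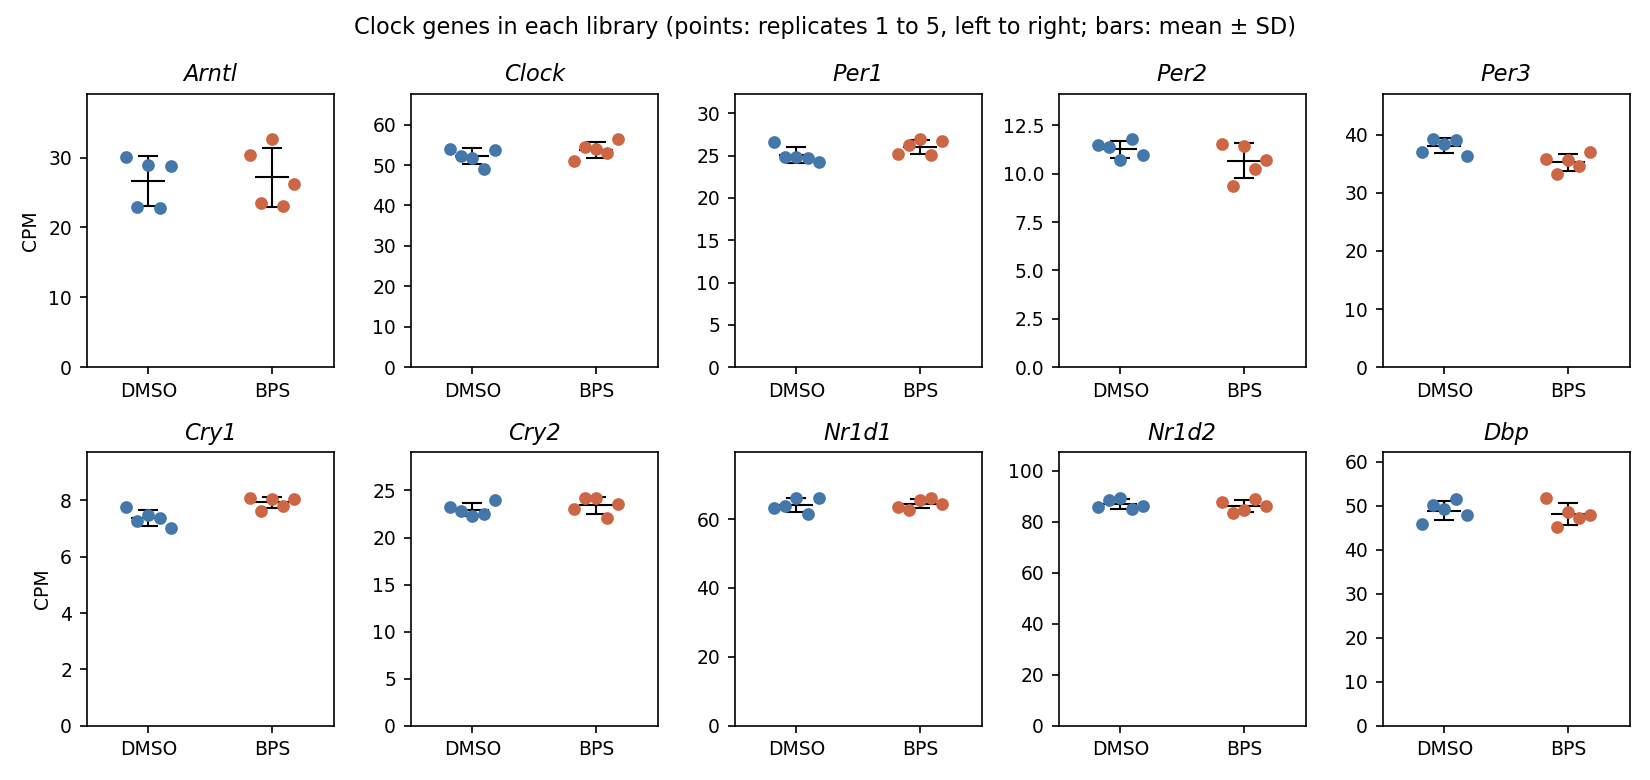
Level of each clock gene in CPM (vertical axis, from 0) in the 5 DMSO and 5 BPS libraries, with points for replicates 1 to 5 from left to right and bars for the mean and SD. The 2 groups overlap in all 10 genes, and Arntl has the widest spread, from 22.8 to 32.6 CPM.

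Within the activating arm, Arntl stood at 30.0, 22.9, 28.9, 22.8 and 28.8 CPM in DMSO replicates 1 to 5 and at 30.4, 23.5, 32.6, 23.1 and 26.2 CPM in BPS replicates 1 to 5. In each group, replicates 2 and 4 were the low libraries and the ranges overlapped almost fully. The means were 26.7 ± 3.55 and 27.2 ± 4.23 CPM (SD, n = 5 each), with a log2 fold change of 0.03 (SE 0.11, 95% interval -0.23 to 0.29, edgeR adjusted p = 0.926). Clock, its partner, ranged from 49.1 to 54.0 CPM in DMSO and from 51.0 to 56.4 CPM in BPS. Its log2 fold change was 0.04 (SE 0.03, 95% interval -0.03 to 0.12, edgeR adjusted p = 0.545).

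Nr1d1 and Nr1d2 form the repressing arm of nuclear receptors, and their CVs (SD over mean) were 2.07% to 3.20%. Nr1d1 had 63.1, 63.6, 66.2, 61.4 and 66.1 CPM in DMSO replicates 1 to 5 and 63.6, 62.8, 65.5, 66 and 64.3 CPM in BPS replicates 1 to 5. All 10 values lay within 5 CPM of each other and neither group was the higher, with a log2 fold change of 0.0071 (SE 0.025, 95% interval -0.05 to 0.07, edgeR adjusted p = 0.921). That interval corresponds to a level in BPS that differs by between -3.52% and 4.67%. Nr1d2, the paralogue, ranged from 85.1 to 89.4 CPM in DMSO and from 83.3 to 88.9 CPM in BPS. Its log2 fold change was -0.01 (SE 0.02, 95% interval -0.07 to 0.04, edgeR adjusted p = 0.799).

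Dbp, the output factor, had 45.8, 50.1, 49.2, 51.5 and 47.9 CPM in DMSO replicates 1 to 5. In BPS replicates 1 to 5 it had 51.9, 45.1, 48.6, 47.3 and 47.9 CPM. The highest and the lowest of the 10 values were both in BPS, and the log2 fold change was -0.02 (SE 0.04, 95% interval -0.11 to 0.07, edgeR adjusted p = 0.824). Its means were 48.9 ± 2.18 and 48.1 ± 2.47 CPM (SD, n = 5 each). In synchronised cultured cells Dbp swings widely over the cycle. Without a time series, similar means cannot place either group in such a swing.

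Among the Period genes, which encode the repressor scaffolds, Per3 showed the member difference with the smallest p. It had 37.1, 39.3, 38.5, 39.2 and 36.4 CPM in DMSO replicates 1 to 5 and 35.9, 33.3, 35.6, 34.6 and 37.1 CPM in BPS replicates 1 to 5. Of the BPS libraries 4 lay below every DMSO library, and BPS replicate 5 lay within the DMSO range. The log2 fold change was -0.11 (SE 0.03, 95% interval -0.19 to -0.03), an unadjusted p of 0.00692 and an edgeR adjusted p of 0.0893, so it was not called. The nearest it came to the threshold was an adjusted p of 0.0594 without BPS replicate 5. With curated transcripts only, the log2 fold change was -0.030, and with exact version matching -0.028.

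Per1, the Period gene that resetting signals induce, had 26.7, 24.9, 24.9, 24.7 and 24.2 CPM in DMSO replicates 1 to 5 and 25.2, 26.2, 26.9, 25.1 and 26.7 CPM in BPS replicates 1 to 5. All 5 BPS values exceeded 4 of the DMSO values, and DMSO replicate 1 lay among the BPS libraries. The log2 fold change was 0.06 (SE 0.03, 95% interval -0.02 to 0.13, edgeR adjusted p = 0.425). Per2 ranged from 10.7 to 11.8 CPM in DMSO and from 9.36 to 11.6 CPM in BPS, a log2 fold change of -0.08 (SE 0.06, 95% interval -0.22 to 0.06, edgeR adjusted p = 0.543).

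The cryptochromes are the partners of the PER proteins and the stronger repressors of the pair. Cry1 had 7.78, 7.26, 7.48, 7.37 and 7.01 CPM in DMSO replicates 1 to 5 and 8.10, 7.64, 8.04, 7.81 and 8.05 CPM in BPS replicates 1 to 5. Here too 4 BPS libraries lay above every DMSO library, and DMSO replicate 1 exceeded BPS replicate 2. The log2 fold change was 0.10 (SE 0.05, 95% interval -0.0040 to 0.21, edgeR adjusted p = 0.276), on 251 to 323 counts per library. Cry2 ranged from 22.3 to 24.0 CPM in DMSO and from 22.0 to 24.2 CPM in BPS, a log2 fold change of 0.03 (SE 0.03, 95% interval -0.05 to 0.11, edgeR adjusted p = 0.734).

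**Figure D2:**
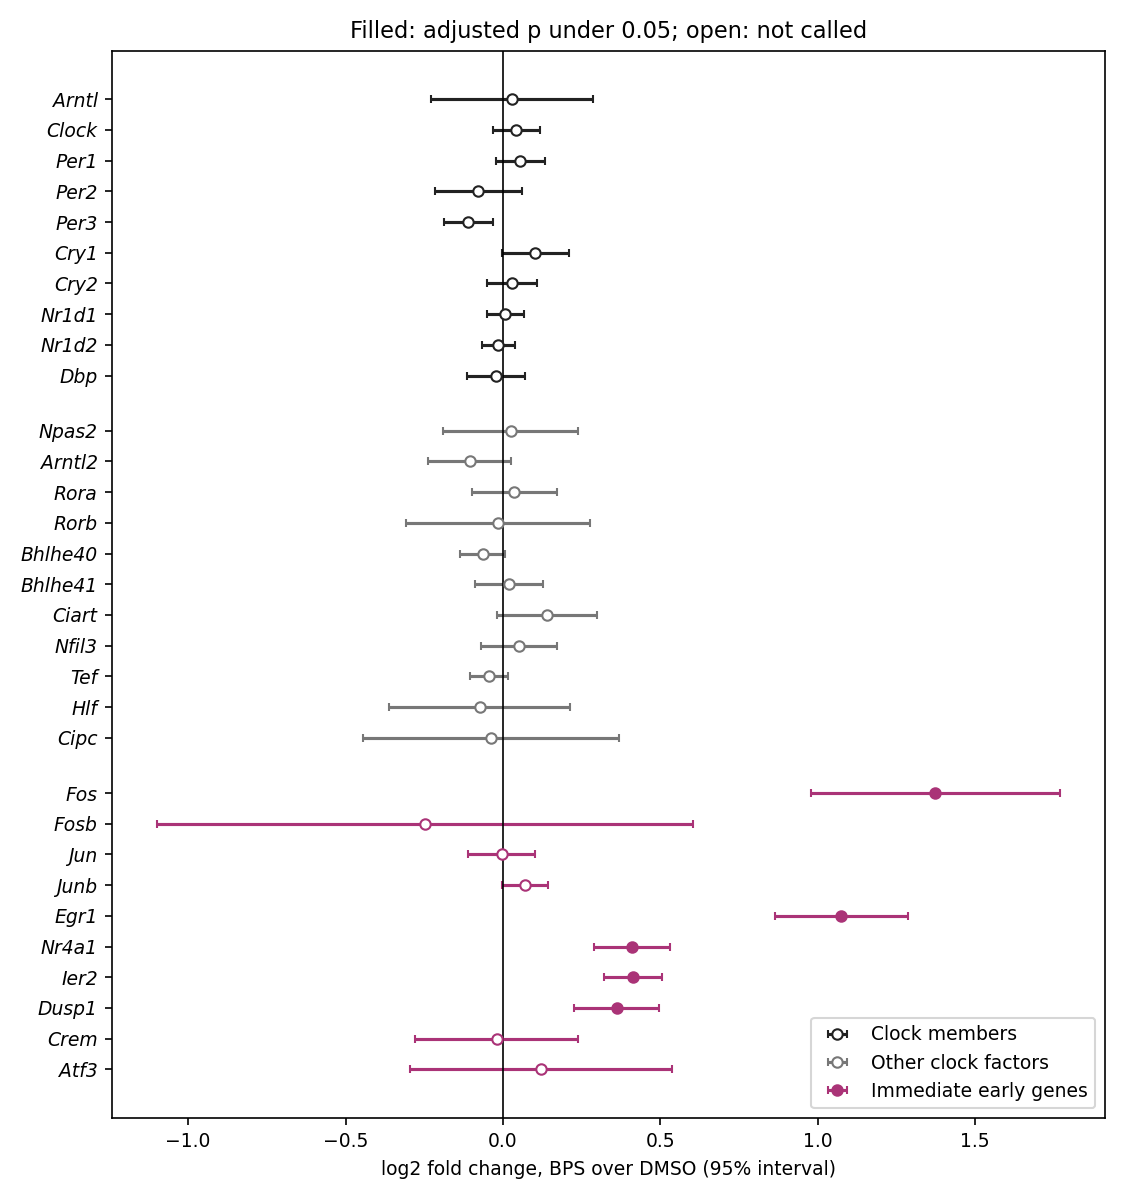
Log2 fold change of BPS over DMSO (horizontal axis) with its 95% interval for the 10 clock genes (black), 11 other clock transcription factors (grey) and 10 immediate early genes (purple), with filled points for an adjusted p under 0.05. All black and grey points are open and lie between -0.11 and 0.14, while 5 purple points are filled and lie between 0.36 and 1.37.

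Levels can be compared between genes only per length, so CPM was divided by the count-weighted transcript length from GENCODE M21, known for 59.6% to 100% of each member's counts. On that scale of CPM per kilobase, Dbp was highest with 24.5 to 28.2 over all 10 libraries, followed by Nr1d1 with 22.6 to 24.3 and Nr1d2 with 17.9 to 19.2. Arntl followed with 7.85 to 11.2 and Clock with 6.74 to 7.74. Each of these 5 was clear of the next in the order, though some only narrowly. These were Dbp and Nr1d1 (24.5 against 24.3), Arntl and Clock (7.85 against 7.74), and Clock and Per3 (6.74 against 6.54). Lengths were known for 87.2% of the counts of Dbp, 88.8% of Arntl, 82.9% of Clock and 65.8% of Per3. The order within these pairs is therefore uncertain. Per3 (5.55 to 6.54), Cry2 (5.54 to 6.10) and Per1 (5.22 to 5.81) followed below Clock, and each overlapped its neighbour among the 3. Cry1 (2.32 to 2.68) and Per2 (1.61 to 2.02) were the lowest and did not overlap. The order of the group means was the same in DMSO as in BPS, except that Per3 and Cry2 changed places, with means of 6.35 and 5.78 in DMSO and 5.88 and 5.89 in BPS.

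The position of a clock in its cycle shows in the balance between the Arntl transcript and its opposites. A contrast was therefore computed in each library as the mean log2 CPM of Nr1d1, Nr1d2, Dbp and Per3 minus the log2 CPM of Arntl. It was 0.88, 1.33, 1.0, 1.32 and 0.96 in DMSO replicates 1 to 5 and 0.90, 1.17, 0.77, 1.27 and 1.09 in BPS replicates 1 to 5. The group means were 1.10 ± 0.21 and 1.04 ± 0.20 (SD, n = 5 each), a difference of -0.06 (BPS minus DMSO) that is smaller than the spread within either group. No p is given, because the contrast is a score over chosen members. Among single ratios, log2 Nr1d1 over Arntl was 1.27 ± 0.17 in DMSO and 1.26 ± 0.22 in BPS. Log2 Dbp over Arntl was 0.88 ± 0.25 and 0.84 ± 0.18, and log2 Nr1d2 over Arntl 1.71 ± 0.20 and 1.68 ± 0.23. Log2 Per3 over Arntl was 0.52 ± 0.24 and 0.39 ± 0.20, the largest difference among these (-0.13). Log2 Cry1 over Dbp, without Arntl, was -2.549, -2.78, -2.71, -2.80 and -2.76 in DMSO replicates 1 to 5. In BPS replicates 1 to 5 it was -2.67, -2.552, -2.59, -2.59 and -2.56. DMSO replicate 1 lay above every BPS library and DMSO replicates 2 to 5 lay below every one. These ratios were not tested. Without a time series the contrast cannot be turned into hours. Cultures in step and harvested at one phase, and cultures whose cells were out of step with one another, cannot be told apart from these totals.

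**Figure D3:**
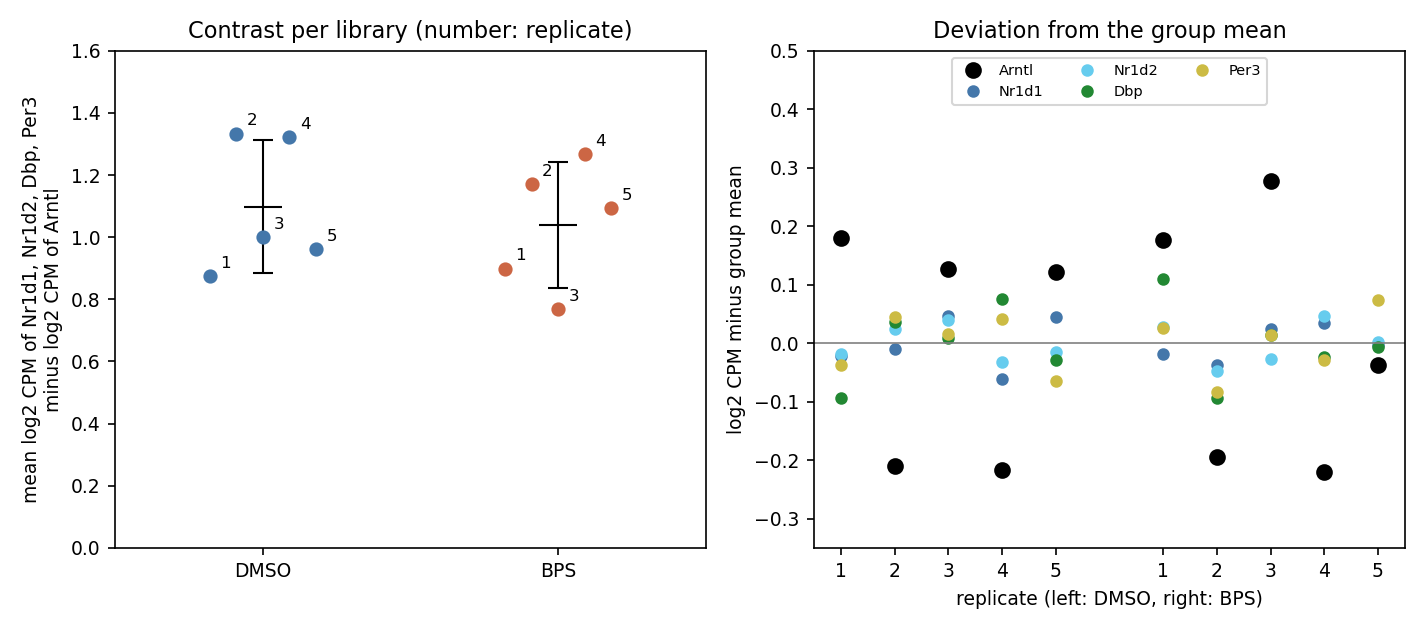
Left, the contrast of mean log2 CPM of Nr1d1, Nr1d2, Dbp and Per3 minus log2 CPM of Arntl in each library, with replicate numbers beside the points and bars for mean and SD. Right, the log2 CPM of these 5 genes minus their group mean. Arntl lies up to 0.28 from its group mean, while the other 4 stay within 0.11 of theirs.

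The spread of the contrast came with Arntl. Its CV was 13.3% in DMSO and 15.6% in BPS. The other 9 members had CVs of 2.14% to 4.46% in DMSO and 2.07% to 8.48% in BPS. The mean of the 2 group CVs of Arntl exceeded that of 96.8% of the 7179 genes with a DMSO mean of 10 to 100 CPM, whose median was 3.86%. In the 4 libraries with low Arntl (replicates 2 and 4 of each group), neither Nr1d1 nor Dbp was high throughout. The deviation of Nr1d1 from its group mean was -0.01, -0.06, -0.04 and 0.04 on the log2 scale in DMSO replicates 2 and 4 and BPS replicates 2 and 4. That of Dbp was 0.04, 0.08, -0.09 and -0.02. Arntl itself deviated by -0.21, -0.22, -0.20 and -0.22 there. In the same order, Per3 deviated by 0.04, 0.04, -0.08 and -0.03, and Nr1d2 by 0.02, -0.03, -0.05 and 0.05. Dbp and Per3 thus lay above their group means in DMSO replicates 2 and 4 and below them in BPS replicates 2 and 4. What accompanies the low Arntl values was not tested.

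A predicted transcript that the gene table left without a gene, XM_017321949.1, was high where Arntl was low. As CPM over all counts it had 11.5, 15.2, 11.1, 17.3 and 9.29 in DMSO replicates 1 to 5, where Arntl had 28.0, 21.4, 26.9, 21.3 and 27.0 on the same scale. In BPS replicates 1 to 5 it had 10.2, 18.2, 9.91, 16.3 and 15.0 and Arntl had 28.4, 21.6, 30.2, 21.4 and 24.3. Their sum lay between 36.3 and 40.1 in all 10 libraries. This transcript was found by a search over 20662 transcripts without a gene for the one that, added to a member, gave the smallest SD within groups, so the fall in SD is in part the search's own. For Arntl the SD fell by 67.3%, from 3.67 to 1.2. The same search lowered the SD of the other 9 members by 45.5% to 61.1%. The gene of this transcript is not known here, and whether it shares reads with Arntl was not tested. The predicted transcript with the next number, XM_017321950.1, was placed in Arntl by the gene table. If XM_017321949.1 also belongs to Arntl, the Arntl levels, spread and contrast given above leave out its counts. Whether it does was not tested.

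With that transcript added to Arntl, a choice made after seeing the data, the CV was 3.69% in DMSO and 2.86% in BPS. The means were 40.4 ± 1.49 and 42.2 ± 1.21 CPM (SD, n = 5 each), with a log2 fold change of 0.06 (SE 0.03, edgeR adjusted p = 0.304). The contrast then stood at 0.49 ± 0.07 in DMSO, ranging from 0.38 to 0.56, and at 0.39 ± 0.07 in BPS, ranging from 0.29 to 0.46. The difference was -0.10 and the groups overlapped. It was larger than the within-group SD in this version and smaller in the original one.

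**Figure D4:**
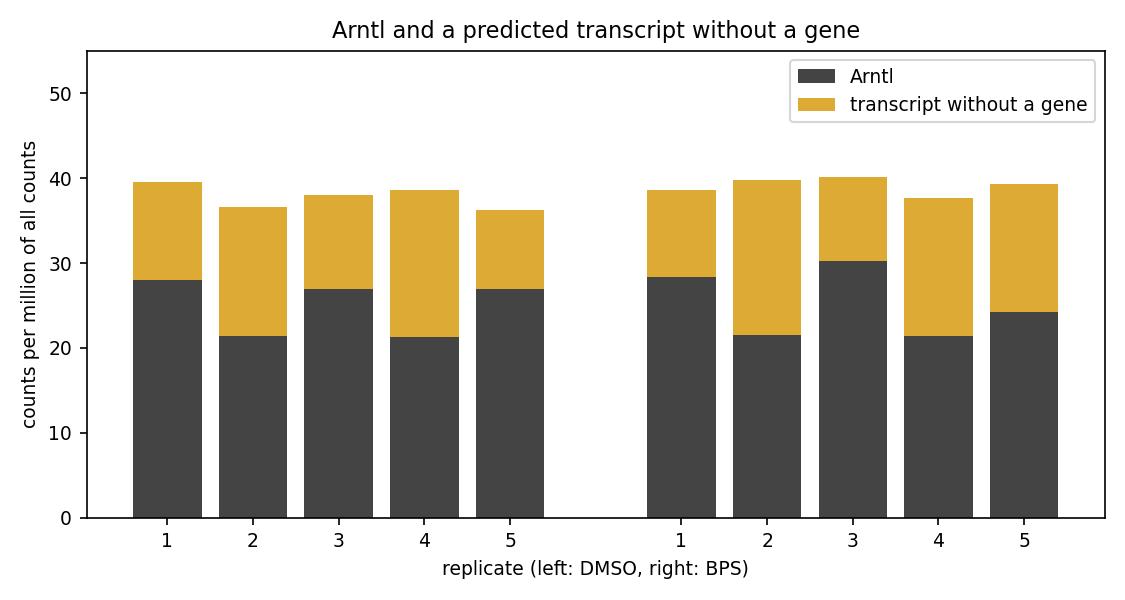
Arntl (dark) and a predicted transcript without a gene (yellow) in CPM over all counts, stacked, for replicates 1 to 5 of each group. The 2 segments move in opposite directions and the stacked height stays between 36.3 and 40.1 in all 10 libraries.

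Single transcripts gave 0 calls among the members. Of 29 member transcripts tested in a fit over 37588 transcripts, of which 0.335% were called, 1 had an unadjusted p under 0.05. The shares of all transcripts at that unadjusted level, or without overlap between the groups, were not counted. The 1 member transcript was a predicted Per3 transcript, XM_017320034.1, singled out after its value was seen. It ranged from 11.1 to 13.3 CPM in DMSO and from 8.65 to 10.7 CPM in BPS without overlap, a log2 fold change of -0.29 (SE 0.08, edgeR adjusted p = 0.375). The most abundant Per3 transcript, NM_011067.3, ranged from 12.7 to 19.9 CPM and from 12.0 to 22.1 CPM, with a log2 fold change of 0.09 (SE 0.17). How reads were divided between such overlapping models is an estimate, so single transcripts are less certain than gene sums.

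The wider clock held no called transcription factor. Of 12 other clock transcription factors, 11 were tested and 0 rose or fell by edgeR, with 0 at an unadjusted p under 0.05. Their median log2 fold change was -0.02, against 0.00039 over all genes tested. Bhlhe40, an E-box repressor also known as DEC1, went from 118.3 ± 4.51 to 113.1 ± 4.03 CPM (SD, n = 5 each, log2 fold change -0.06, edgeR adjusted p = 0.287). Its paralogue Bhlhe41 had a log2 fold change of 0.02 (SE 0.05). Ciart, a repressor of the Arntl and Clock pair, had the highest value of this list, 0.14 (SE 0.07, edgeR adjusted p = 0.307).

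The D-box factors and the ROR arm likewise held no call. Tef and Hlf, which bind D-boxes like Dbp, had log2 fold changes of -0.04 (SE 0.03) and -0.07 (SE 0.12), with adjusted p of 0.4 and 0.816 by edgeR. Nfil3, which represses at D-boxes, had 0.05 (SE 0.05). Rora, the activator at ROR elements, had 0.04 (SE 0.06), and Npas2, which can stand in for Clock, had 0.03 (SE 0.09). Their adjusted p by edgeR were 0.674, 0.809 and 0.923.

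Of 21 kinases, ubiquitin ligases and cofactors of the clock, all were tested and 0 were called by edgeR, with 5 at an unadjusted p under 0.05 (18.8% of all genes) and a median log2 fold change of 0.00075. Over the 5 lists of other genes together, edgeR called 10, DESeq2 13 and limma-voom 8. The kinases that set the pace of the PER proteins, Csnk1d and Csnk1e, had log2 fold changes of 0.02 (SE 0.02) and 0.08 (SE 0.09) and were not called.

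Of 12 clock-controlled output genes, all tested, 2 rose and 1 fell by edgeR, where 3.06% of all genes rose and 1.82% fell. At an unadjusted p under 0.05 there were 5, against 18.8% of all genes. The list's median log2 fold change was -0.04. Cdkn1a, the cell cycle inhibitor p21, rose by 0.15 on the log2 scale (SE 0.04, edgeR adjusted p = 0.0497). Klf9, a transcription factor, fell, at -0.09 (SE 0.02, edgeR adjusted p = 0.0253). Both genes also answer signals other than the clock. Both calls were lost without single libraries. Klf9 lost it without DMSO replicate 2 or 4 or BPS replicate 3 or 4 (edgeR adjusted p up to 0.0704), and with no filter on low counts (0.0505). Cdkn1a kept it without DMSO replicate 4 or BPS replicate 5 and lost it without any of the other 8 (up to 0.11). It also lost it with DESeq2 size factors, library size alone, no filter, limma-voom, exact versions and curated transcripts only, with adjusted p from 0.0508 to 0.114.

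Signals that reset the clock also induce immediate early genes, and some of these rose. Of 10 immediate early genes of the serum and cyclic AMP response, all tested, 5 rose and 0 fell by edgeR, where 3.06% of all genes rose and 1.82% fell, with a median log2 fold change of 0.24. At an unadjusted p under 0.05 there were 6, against 18.8% of all genes. This rise was known from earlier results of these data when the list was written, so it is no independent evidence. Egr1 rose from 28.4 ± 3.34 CPM with DMSO to 59.8 ± 6.93 CPM with BPS (SD, 5 libraries each), at a log2 fold change of 1.08 (SE 0.09, edgeR adjusted p = 5.69e-05), and Fos by 1.37 (SE 0.17, adjusted p = 0.00104). Ier2, Nr4a1 and Dusp1 rose by 0.41 (SE 0.04), 0.41 (SE 0.05) and 0.36 (SE 0.06), with adjusted p of 0.000155, 0.00119 and 0.0051 by edgeR. With curated transcripts only, Nr4a1 had 0.18 and was not called (edgeR adjusted p = 0.754). In the same libraries Per1, itself an immediate early gene in resetting cells, had the log2 fold change of 0.06 given above. The difference between these responses was not tested.

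Of 8 glucocorticoid-responsive genes, 7 were tested, 1 rose and 1 fell by edgeR, where 3.06% of all genes rose and 1.82% fell, and the median log2 fold change was -0.01. At an unadjusted p under 0.05 there were 5, against 18.8% of all genes. Of these 5, Tsc22d3 and Fkbp5, named after their values were seen, are well-known glucocorticoid targets. Tsc22d3 had 39.9 to 41.9 CPM in DMSO and 42.2 to 46.2 CPM in BPS without overlap, and a log2 value of 0.11 (SE 0.03, unadjusted p = 0.00351, edgeR adjusted p = 0.0613). Fkbp5 had 97.9 to 107.5 and 102.2 to 111.7 CPM, and a log2 value of 0.08 (SE 0.03, unadjusted p = 0.0304, edgeR adjusted p = 0.205). Neither passed the adjusted threshold. Pdk4, another of these 5, had a log2 value of -0.14 (SE 0.05, edgeR adjusted p = 0.199). Sgk1, of the same list, had -0.01 (SE 0.03, edgeR adjusted p = 0.896). Zbtb16, a gene that glucocorticoids raise strongly, had at most 2 counts in a library. Errfi1, an inhibitor of the EGF receptor, rose by 0.13 on the log2 scale (SE 0.03, edgeR adjusted p = 0.0461), and the metallothionein Mt2 fell, at -0.16 (SE 0.04, edgeR adjusted p = 0.0383). Both calls were lost without single libraries. Errfi1 lost it without any of DMSO replicates 1 to 4 or BPS replicates 1, 2 and 4 (edgeR adjusted p up to 0.103), and also with limma-voom (0.0505), library size alone (0.0706) and curated transcripts only (0.0994). Mt2 lost it without any of DMSO replicates 2 to 5 or BPS replicates 3 to 5 (up to 0.0874), and with exact versions (0.0657) and curated transcripts only (0.0659). Together the 5 lists held 62 genes, 60 of them tested and 10 called.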

How the data were processed

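RNA sequencing was measured in 10 libraries. The deposited file holds estimated counts per RefSeq transcript, made by the authors with kallisto 0.42.4, per the submitters' processing notes and the file headers. The index, build and strand setting are not given in the sources used here, though the library kit was directional per the labels' protocols. Columns were tied to samples by library code, and 0 were left over.

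Accessions without version were matched to RefSeq genes (GRCm38.p6, names only). This placed 86722 of 107384 transcripts in 32903 genes with 93.1% of the counts. The other 20662 transcripts stayed out of gene tests. Gene sums were rounded, filtered with filterByExpr (14597 genes left), scaled by TMM and tested with edgeR's quasi-likelihood test without covariates, adjusted over all genes. CPM is over the TMM-scaled size, and log2 CPM uses a prior count of 2. Code was tested on simulated counts.

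The tests ran in edgeR 4.0.16, DESeq2 1.42.0 and limma 3.58.1 under R 4.3.3, and summaries in pandas 2.3.3 and numpy 2.4.6 under Python 3.11.15. Lists and members were chosen with earlier results of these data known. All 10 members are named, with every called gene of the 5 other lists (at most 6 each) and 13 genes fixed by name, except for results that are not reported here. Alternatives were 3 scalings, 2 filters, DESeq2, limma-voom, a replicate block, leaving out each library, exact version matching, curated transcripts, single transcripts, and other genes or prior count in the contrast. Adding an unassigned transcript to Arntl was chosen after seeing the data.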

Additional observations from a re-analysis of the deposited data

Results flagged for a closer look

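Of 60 groups of 5 values, 2 had 1 library farther from its neighbours than Dixon's 95% critical value allows, beside the 3 that chance gives at about 1 in 20. Per1 in DMSO replicate 1 was 26.7 CPM, while the other DMSO libraries had 24.2 to 24.9 CPM. Dusp1 in BPS replicate 2 was 17.6 CPM, while the other BPS libraries had 15.1 to 15.7 CPM.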

How the results depend on the processing

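Under every setting run, 0 of the 10 clock members were called, and over 219 alternative values for them the lowest adjusted p was 0.0594 (Per3 without BPS replicate 5, edgeR). The number of called genes over all genes, 712 originally, was 374 with the replicate block, 328 with exact version matching, 311 with curated transcripts only and 449 to 774 over fits that each lacked 1 library. The lowest such counts were 449 (DMSO replicate 2 left out), 462 (BPS replicate 2), 462 (BPS replicate 4) and 465 (BPS replicate 3), each a change of over 1.5 times. With library size alone, 334 of 728 calls were higher, against 447 of 712. The 10 calls in the other lists became 4 with exact versions, 5 with curated transcripts only and 6 to 9 when single libraries were left out, with 6 without DMSO replicate 4 and 6 without BPS replicate 4. Under the block there were 8, with Klf9 (edgeR adjusted p = 0.0984) and Errfi1 (0.053) no longer called. Over the genes tested, deviations from the group mean in same-numbered libraries had correlations of 0.10, 0.0038, -0.07, 0.07 and -0.08. These low values show no strong shared deviation. They cannot settle whether the numbers pair the libraries, since a weak one could be missed, and the labels do not say. The block changed no call of a member.

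The sign of small, uncalled log2 fold changes turned in places. With exact versions it was -0.059 for Arntl, 0.059 for Per2, -0.015 for Ciart and 0.14 for Tef, and Per1, Npas2, Fos, Klf9 and Errfi1 could not be tested. With curated transcripts only it was -0.062 for Arntl, 0.057 for Per2, -0.017 for Ciart, 0.14 for Tef and 0.49 for Hlf. For the most abundant transcript it was -0.036 for Arntl, -0.075 for Per1, 0.065 for Per2 and 0.094 for Per3. With library size alone Nr1d1 had -0.0076. Leaving out single libraries gave -0.045 to 0.082 for Arntl, -0.0090 to 0.019 for Nr1d1, -0.018 to 0.065 for Npas2, -0.011 to 0.070 for Rora, -0.0046 to 0.052 for Bhlhe41 and -0.00023 to 0.029 for Csnk1d. The phase contrast difference, -0.059, ran from -0.12 to 0.0090 without single libraries and was 0.054 with exact versions and with curated transcripts. The causes were not tested. Arntl's spread limits what the contrast can show.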
